A study of Rattus norvegicus with 10 samples.

Results

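A set of 10 genes of the chemokine and inflammatory cytokine system were followed in cultured neonatal rat heart muscle cells: the chemokines Ccl2, Ccl7, Cxcl1, Cxcl2, Cxcl10, Cxcl12 and Cx3cl1, the cytokines Il6 and Il1b, and the receptor gene Il1rl1. They were taken as every probe set that the platform annotation gives to one of these 10 symbols, which made 13 of 31042 probe sets and 10 of 14218 gene symbols on the array. Cxcl12 had 3 probe sets, Il1rl1 had 2 and each other gene had 1. Ventricular cardiomyocytes were isolated from Lewis rats aged 0 to 3 days and, after a recovery phase, kept in culture for 3 days under one of 3 conditions. The pulsed + blebbistatin group was paced electrically at 1 Hz and 2 V/cm in the presence of 10 µmol/L blebbistatin, an inhibitor of muscle and non-muscle myosin II that blocks contraction (3 arrays, culture series 2, 3 and 4). The pulsed group was paced in the same way without the drug (4 arrays, series 1 to 4), and the nonpulsed group was not paced (3 arrays, series 1, 2 and 3). A series is the set of arrays whose titles carry the same date, numbered here in order of time and taken as 1 isolation and culture. Each array holds RNA pooled in equal parts from duplicate experiments. No cultures with blebbistatin and without pacing were arrayed, so a block of contraction and any other action of the drug cannot be told apart.

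Chemokines are small secreted proteins that draw leukocytes along a gradient by binding receptors of the G protein-coupled family. CCL2 and CCL7 attract monocytes, CXCL1 and CXCL2 attract neutrophils, CXCL10 attracts activated T cells and is induced by interferon, CXCL12 retains and guides progenitor cells through CXCR4 and ACKR3, and CX3CL1 is a membrane-bound chemokine that can be shed. IL-6 and IL-1β are the classical pro-inflammatory cytokines, and IL1RL1, also called ST2, is the receptor chain for IL-33, made both as a membrane receptor and as a soluble decoy that is measured in blood as a marker of heart failure. Many of these genes are switched on through the transcription factors NF-kB and AP-1, and in the heart they are made by muscle cells, fibroblasts, endothelial cells and macrophages.

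Values are deposited log2 levels, and each array had a lowest level, shared by 1990 to 2278 probe sets, between 3.32 and 3.46. All 10 cardiomyocyte markers were above the filter on low values, with Myh6 between 12.57 and 13.59 and Tnnt2 between 13.17 and 13.56. Markers of other cells were present on every array as well, such as the fibroblast collagen gene Col1a1 at 13.04 to 13.54 and the macrophage lysozyme gene Lyz2 at 9.32 to 11.90, whereas Cd163 (macrophage) and Vwf (endothelial) lay at the lowest level on 4 of 10 arrays. The arrays therefore measured mixed cultures, in which fewer cells of a type and less RNA per cell cannot be told apart. Probe sets in the lowest 25% by mean level over all arrays (below 5.09) were left out of the main test. This filter kept 10 of the 13 probe sets, from 7 genes, and left out Cxcl2, Il6 and Il1b, whose values below come from a fit without it.

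No chemokine or cytokine probe set differed between the groups at the threshold, an adjusted p of 0.05 in limma with culture series as a block and Benjamini-Hochberg adjustment over all 23281 probe sets. For pulsed minus nonpulsed cultures, 0 of 10 probe sets passed, beside 0% of all probe sets, and 0 of 10 had an unadjusted p under 0.05, beside 9.08%. For pulsed + blebbistatin minus pulsed cultures, 0 of 10 passed, beside 0.0129% of all probe sets, and 1 of 10, Cxcl10, had an unadjusted p under 0.05, beside 11.6%. For pulsed + blebbistatin minus nonpulsed cultures, 0 of 10 passed, beside 0.472% of all probe sets, and 1 of 10, again Cxcl10, had an unadjusted p under 0.05, beside 22.4%. The median log2 difference of the 10 probe sets was -0.18, -0.26 and -0.39 in these 3 comparisons, against 0.04, 0.02 and 0.07 over all probe sets. That median counts Cxcl12 with 3 probe sets and Il1rl1 with 2. With 1 probe set for each of the 7 genes it was -0.37, 0.03 and -0.45, so its sign with blebbistatin against pulsed cultures depended on this choice.

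**Figure D1:**
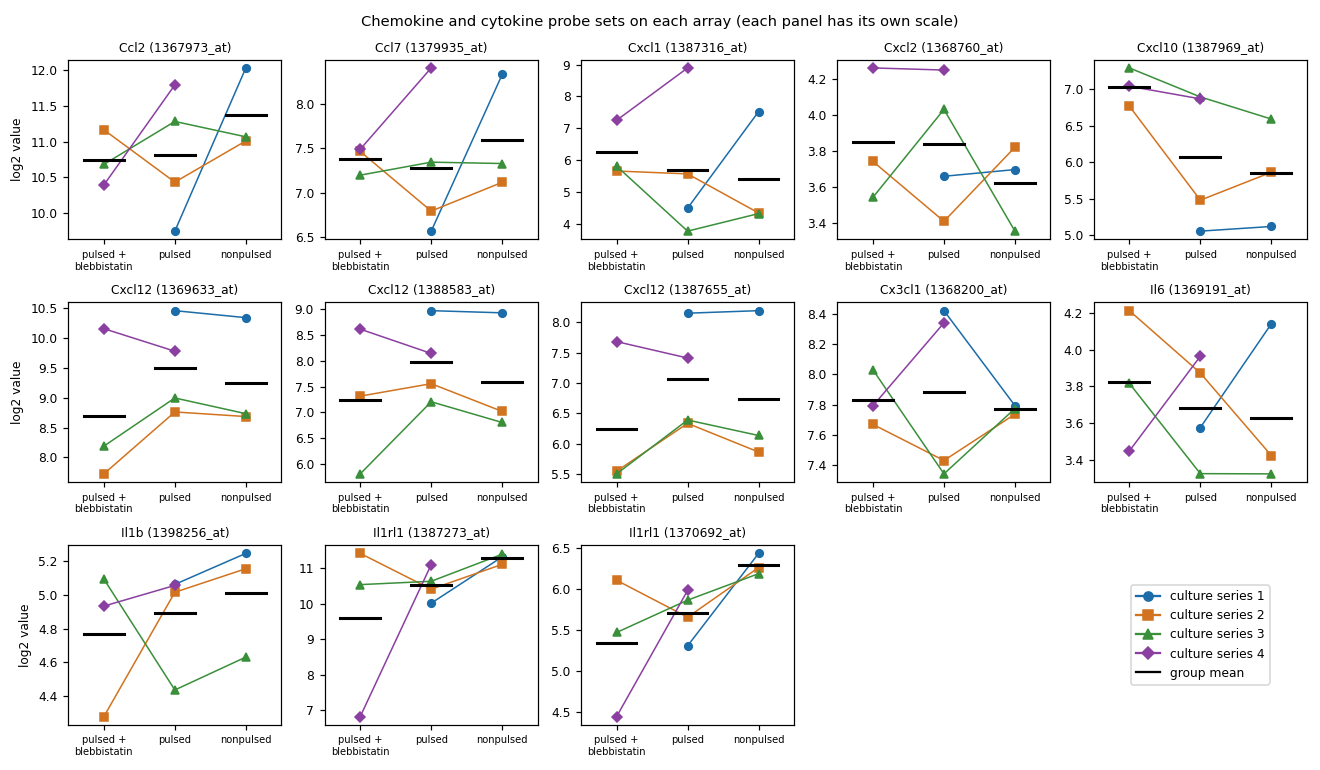
Deposited log2 value (vertical axis, a separate scale in each panel) of each of the 13 probe sets on each of the 10 arrays, by group. Points of one colour and marker are one culture series and are joined by a line, and black bars are group means. Lines of different series cross in most panels, and the array of pulsed + blebbistatin series 4 stands at 6.82 for Il1rl1 1387273_at.

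Within single culture series, several probe sets differed 2-fold or more, but for pulsed minus nonpulsed and pulsed + blebbistatin minus pulsed none did so in the same direction in all 3 series. In series 1, 5 of the 10 probe sets (Ccl2, Ccl7, Cxcl1 and both of Il1rl1) were at least 2-fold lower in the pulsed than in the nonpulsed culture, where 4.58% of all probe sets differed 2-fold or more in either direction. In series 2 it was 1 of 10, Cxcl1, higher in the pulsed culture, beside 0.588% of all. In series 3 it was 0 of 10, beside 0.21%. Between pulsed + blebbistatin and pulsed cultures, 3 of 10 differed 2-fold or more in series 2 (Cxcl10 and Il1rl1 1387273_at higher, Cxcl12 1369633_at lower), beside 1.68% of all. In series 3 there were 2 of 10 (Cxcl1 higher, Cxcl12 1388583_at lower), beside 1.37%, and in series 4 there were 4 of 10 (Ccl2, Cxcl1 and both Il1rl1 probe sets, all lower), beside 2.39%.

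**Figure D2:**
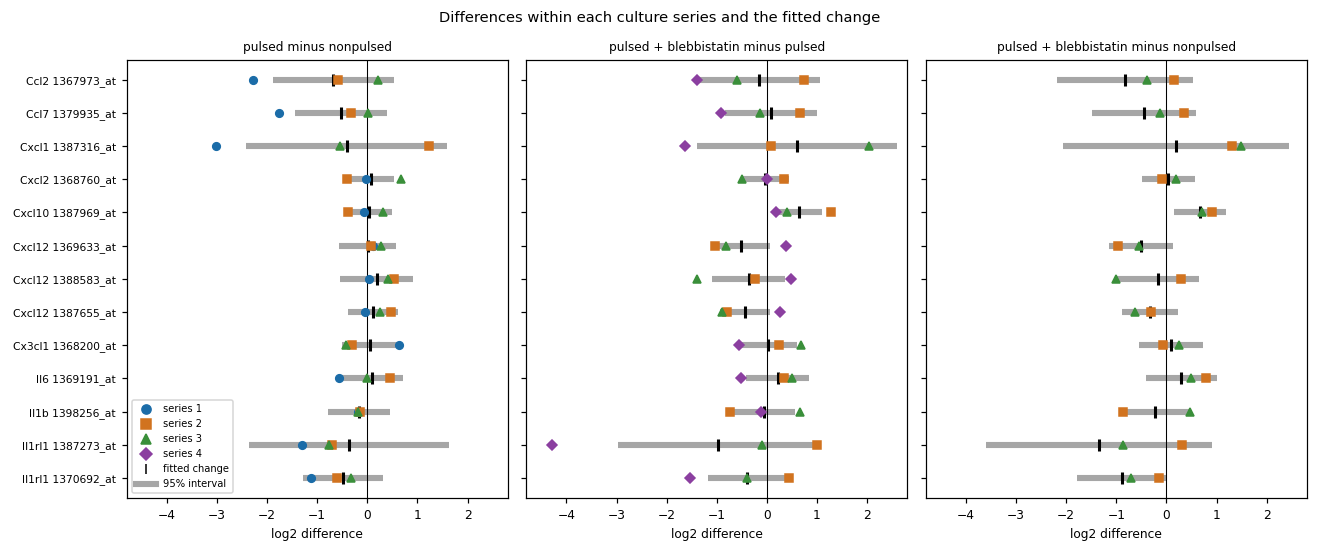
Log2 difference (horizontal axis) of each probe set in the 3 comparisons, with one coloured marker per culture series, the fitted change as a black tick and its 95% interval as a grey bar. For pulsed minus nonpulsed cultures, the series 1 markers of Ccl2, Ccl7 and Cxcl1 lie at -2.29, -1.76 and -3.03, while the fitted intervals of all 13 probe sets include 0.

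Ccl2 encodes the main attractant of monocytes. Its level was 11.17, 10.68 and 10.39 in the pulsed + blebbistatin cultures of series 2, 3 and 4. It was 9.74, 10.43, 11.28 and 11.80 in the pulsed cultures of series 1 to 4, and 12.03, 11.01 and 11.07 in the nonpulsed cultures of series 1 to 3. The 3 groups overlapped, and the lowest and the highest of the 10 values were the pulsed and the nonpulsed culture of the same series 1. Pulsed minus nonpulsed was -2.29 (a 4.89-fold lower level), -0.58 and 0.22 in series 1, 2 and 3. The fitted difference was -0.68 (SE 0.52, adjusted p = 0.707 in limma), and it was 0.06 without series 1. Blebbistatin gave no common direction either, with pulsed + blebbistatin minus pulsed at 0.73, -0.60 and -1.40 in series 2, 3 and 4 (fitted -0.15, SE 0.52, adjusted p = 0.932 in limma).

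Ccl7, a monocyte attractant whose gene neighbours Ccl2 in the same chemokine cluster, had a similar profile. Its level was 7.47, 7.20 and 7.49 in the pulsed + blebbistatin cultures. It was 6.57, 6.80, 7.34 and 8.40 in the pulsed cultures and 8.33, 7.12 and 7.33 in the nonpulsed cultures, in the order of their series. The pulsed group spanned the values of the other groups. Within series, pulsed minus nonpulsed was -1.76, -0.32 and 0.02 (fitted -0.52, SE 0.39, adjusted p = 0.704 in limma), and 0.04 without series 1. Pulsed + blebbistatin minus pulsed was 0.67, -0.15 and -0.91 (fitted 0.08, SE 0.39, adjusted p = 0.954 in limma). Across the 10 arrays, Ccl2 and Ccl7 correlated at a Pearson r of 0.88 and a Spearman rho of 0.71, as a description over arrays that share culture series.

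The 300 bases around the annotated start of Ccl7 (250 before and 50 after, RefSeq, GRCr8, chr10:67513845-67514144, plus strand) are shown because they hold one of the AP-1 matches among these genes. Capitals mark the AP-1 letters TGANTCA, which read the same motif on both strands and begin 73 bases before the start.
Ccl7: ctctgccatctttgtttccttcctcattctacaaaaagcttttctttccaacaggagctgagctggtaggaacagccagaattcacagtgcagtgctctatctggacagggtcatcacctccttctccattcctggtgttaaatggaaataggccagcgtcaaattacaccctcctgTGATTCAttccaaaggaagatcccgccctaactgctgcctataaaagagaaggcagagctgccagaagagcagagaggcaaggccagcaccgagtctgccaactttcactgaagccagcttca
Of 33469 rat promoter windows of this length, 7.33% hold an AP-1 match on either strand, as do 2 of the 9 windows found for the genes described here (Ccl7 and Cxcl10). A match describes the letters and not a bound site.

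Cxcl1, a neutrophil attractant, spanned 5.12 log2 units over the 10 arrays. Its level was 5.66, 5.81 and 7.25 in the pulsed + blebbistatin cultures of series 2, 3 and 4. It was 4.50, 5.57, 3.77 and 8.89 in the pulsed cultures of series 1 to 4, and 7.52, 4.34 and 4.32 in the nonpulsed cultures of series 1 to 3. The highest value was the pulsed culture of series 4 and the lowest the pulsed culture of series 3, so the pulsed group enclosed both others. Pulsed minus nonpulsed was -3.03 in series 1, an 8.15-fold lower level, and 1.23 and -0.55 in series 2 and 3. The fitted difference was -0.41 (SE 0.86, adjusted p = 0.907 in limma), 0.79 without series 1 and 0.29 without the series block. Pulsed + blebbistatin minus pulsed was 0.09, 2.04 and -1.64 in series 2, 3 and 4 (fitted 0.60, SE 0.86, adjusted p = 0.826 in limma). In both series with all 3 groups, pulsed + blebbistatin exceeded nonpulsed, by 1.32 in series 2 and 1.49 in series 3. With those 2 groups fitted alone the difference was 1.40 (SE 0.14, adjusted p = 0.0524 in limma), against 0.19 (SE 0.97, adjusted p = 0.928) in the fit of all arrays. The 1.40 and its SE rest on the pairs of series 2 and 3 alone. With only the series that hold both groups, the smallest adjusted p of any probe set described here was 0.111 in limma.

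The promoter window of Cxcl1 (RefSeq, GRCr8, chr14:17479272-17479571, minus strand) is shown for its NF-kB letters, since Cxcl1 is a textbook NF-kB target. The capitals cover 2 overlapping matches on opposite strands, which begin 84 and 83 bases before the start and are the same stretch of sequence.
Cxcl1: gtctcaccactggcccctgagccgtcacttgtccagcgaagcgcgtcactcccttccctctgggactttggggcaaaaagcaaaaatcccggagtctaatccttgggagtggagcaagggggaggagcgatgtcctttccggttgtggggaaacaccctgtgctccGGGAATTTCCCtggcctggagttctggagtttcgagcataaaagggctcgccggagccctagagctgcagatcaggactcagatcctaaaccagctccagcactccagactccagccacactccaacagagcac
An NF-kB match occurs in 4.18% of all 33469 windows and in 4 of the 9 found here, those of Cxcl1, Cxcl2, Cxcl10 and Il6.

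Cxcl2, the other neutrophil attractant, was close to the lowest level of the arrays. It read 3.74, 3.54 and 4.26 in the pulsed + blebbistatin cultures, 3.66, 3.41, 4.03 and 4.25 in the pulsed cultures, and 3.70, 3.82 and 3.35 in the nonpulsed cultures. The groups overlapped throughout, and the 3 fitted differences lay between -0.03 and 0.07 (adjusted p of 0.924 to 0.982 in limma without the filter). At this level a difference was not detectable, and its size can be understated.

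Among the 10 chemokine and cytokine genes followed, only Cxcl10 had an unadjusted p under 0.05 with blebbistatin in the limma fit of all arrays. Its level was 6.77, 7.29 and 7.04 in the pulsed + blebbistatin cultures of series 2, 3 and 4. It was 5.06, 5.48, 6.90 and 6.87 in the pulsed cultures of series 1 to 4, and 5.12, 5.87 and 6.59 in the nonpulsed cultures of series 1 to 3. The pulsed + blebbistatin cultures were above all nonpulsed cultures, as in 17.6% of all probe sets, and they overlapped the pulsed cultures. Pulsed + blebbistatin minus pulsed was 1.29, 0.40 and 0.17 in series 2, 3 and 4, higher in 3 of 3 series, a pattern found in 23.5% of all probe sets. The fitted difference was 0.63 (SE 0.20, 1.55-fold), with an unadjusted p of 0.0130 and an adjusted p of 0.316 in limma, and it was 0.34 without series 2. Pulsed + blebbistatin minus nonpulsed was 0.66 (SE 0.22, adjusted p = 0.150 in limma). For Cxcl10 the pulsed minus nonpulsed difference was near 0, with -0.06, -0.38 and 0.30 in series 1, 2 and 3, a fitted difference of 0.03 (SE 0.20, adjusted p = 0.975 in limma), and -0.03 and -0.04 after quantile normalization and after median centring.

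The promoter window of Cxcl10 (RefSeq, GRCr8, chr14:15988816-15989115, plus strand) is shown because all 3 motifs searched occur in it. From the 5′ end, the capitals mark the interferon response letters GAAANNGAAA (ISRE, 243 bases before the start), the NF-kB letters (187 bases before it) and the AP-1 letters (96 bases before it).
Cxcl10: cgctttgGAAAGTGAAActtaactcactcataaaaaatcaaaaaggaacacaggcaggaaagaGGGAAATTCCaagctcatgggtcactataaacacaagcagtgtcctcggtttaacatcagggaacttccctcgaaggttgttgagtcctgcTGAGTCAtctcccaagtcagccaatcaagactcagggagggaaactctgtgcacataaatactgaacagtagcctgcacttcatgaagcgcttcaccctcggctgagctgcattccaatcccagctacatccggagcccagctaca
An ISRE match on either strand occurs in 3.92% of all windows and in 1 of the 9 found here. These motifs did not overlap one another in the Cxcl10 window.

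With blebbistatin against pulsed cultures, genes that like Cxcl10 are known to respond to interferon mostly had the same sign as Cxcl10. Of 17 listed interferon-stimulated genes, 15 were above the filter, and 0 passed the threshold in any of the 3 comparisons, or 1 with blebbistatin added to pacing when series 1 was left out. With blebbistatin added to pacing, 14 of 15 differences were positive, beside 55.5% of all probe sets, with a median of 0.31 against 0.02 over all probe sets. The median was 0.17, 0.30 and 0.69 in series 2, 3 and 4, and the fitted one 0.16 without series 4. Ifit2 was negative in each of these series, at -0.19, -0.41 and -0.16 on its brightest probe set. Isg15, a ubiquitin-like protein made in response to interferon, had the largest difference among those above the filter, 1.37 (SE 0.22, adjusted p = 0.123 in limma), with 1.53, 1.14 and 1.75 in the 3 series. Rsad2, which encodes the antiviral enzyme viperin, was below the filter and differed by more. It read 5.88, 7.12 and 6.58 in the pulsed + blebbistatin cultures of series 2, 3 and 4, against 3.57, 3.39, 5.63 and 4.57 in the pulsed cultures of series 1 to 4 and 3.38, 3.45 and 6.09 in the nonpulsed cultures. Its pulsed + blebbistatin values lay above all pulsed values, as in 6.18% of all probe sets above the filter, and overlapped the nonpulsed ones. Against pulsed cultures it was higher in 3 of 3 series, by 1.49 or more (fitted 1.95, SE 0.25, adjusted p = 0.190 in limma without the filter). Usp18, which removes ISG15 from proteins, differed by 1.02 (SE 0.39, adjusted p = 0.386) and Irf7, a transcription factor of the interferon response, by 0.71 (SE 0.24, adjusted p = 0.353). For pulsed minus nonpulsed, 13 of 15 differences were negative, where 61.1% of all probe sets were positive. The median of the 15 was -0.28 against 0.04 over all probe sets, and the series medians were 0.04, -0.24 and -0.50. That fitted median was -0.47 without series 1 and -0.15 without the nonpulsed culture of series 3. Both comparisons use the pulsed arrays, so their opposite signs are not independent of each other. Against nonpulsed cultures, 11 of the 15 differences with blebbistatin were positive, beside 61% of all probe sets. Their fitted median was 0.12 against 0.07 over all probe sets, and their medians within series 2 and 3 were -0.10 and -0.18. Against pulsed cultures, the macrophage markers of the same pulsed + blebbistatin cultures had medians of -0.36, 0.005 and -0.71 in series 2, 3 and 4.

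Cxcl12, the ligand of CXCR4 and ACKR3, differed between culture series, and none of its treatment differences passed the threshold. On its leading probe set, the brightest of the 3, the value was 7.72, 8.19 and 10.16 in the pulsed + blebbistatin cultures of series 2, 3 and 4. It was 10.46, 8.76, 9.00 and 9.78 in the pulsed cultures of series 1 to 4, and 10.35, 8.69 and 8.73 in the nonpulsed cultures of series 1 to 3. All arrays of series 1 and 4 lay at or above 9.78, and all arrays of series 2 and 3 at or below 9.00, whatever the treatment. The other probe sets had the same split, with 8.14 to 8.98 in series 1 and 4 against 5.80 to 7.56 in series 2 and 3 on 1388583_at, and 7.41 to 8.19 against 5.50 to 6.39 on 1387655_at. The culture series term of the fit passed for all 3 probe sets (adjusted p of 0.0177, 0.0289 and 0.00814 in limma), with fitted gaps between the lowest and the highest series of 1.84, 2.26 and 2.13. Some marker lists were split in the same way, on the log2 scale of their sum. Fibroblast markers gave 15.68 to 15.94 in series 1 and 4 against 14.96 to 15.64 in series 2 and 3. Macrophage markers gave 11.70 to 12.70 against 10.71 to 11.69, and endothelial markers 11.11 to 11.22 against 10.60 to 10.82. By the median of each list, fibroblast and macrophage markers kept this split and endothelial markers did not. The endothelial median was 6.73 in pulsed + blebbistatin series 4 and 6.85 in pulsed series 3. Smooth muscle and cardiomyocyte markers were not split this way. A part of cell content in the Cxcl12 split was not tested.

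Within series, pulsed + blebbistatin minus pulsed was -1.04 and -0.81 in series 2 and 3 and 0.38 in series 4 on the leading Cxcl12 probe set (fitted -0.51, SE 0.24, adjusted p = 0.472 in limma). The fitted differences on 1388583_at and 1387655_at were -0.37 (SE 0.31) and -0.44 (SE 0.21), and series 4 was positive on each of them. Without series 4 the leading probe set gave -0.91 (adjusted p over its alternatives between 0.141 and 0.867). Pulsed minus nonpulsed was 0.12, 0.08 and 0.26 in series 1 to 3, the fitted difference was 0.00477 (SE 0.24, adjusted p = 0.997 in limma), and its sign was negative, at -0.05 and -0.07, after quantile normalization and median centring.

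Cxcl10 was the other gene whose culture series term passed, with an adjusted p of 0.0218 in limma and a fitted gap of 1.62, series 1 being lowest and series 3 highest. In all, the series term passed for 4 of 10 probe sets, beside 8.09% of all probe sets, and for 2 of 7 genes with 1 probe set each. This test, of whether the 4 series differ, was added after the values had been seen, and the count was 0 without series 2 and 5 without the pulsed culture of series 4.

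The receptors of CXCL12 were measured in the same cultures. Cxcr4 (leading probe set) read 8.19, 7.93 and 7.91 in the pulsed + blebbistatin cultures, against 9.12, 8.58, 8.14 and 9.00 in the pulsed cultures and 8.47, 7.99 and 8.04 in the nonpulsed cultures. Pulsed + blebbistatin minus pulsed was negative in 3 of 3 series, as in 15.2% of all probe sets, between -1.10 and -0.21 (fitted -0.59, SE 0.18, adjusted p = 0.316 in limma). Pulsed minus nonpulsed was positive in 3 of 3 series, as in 24.1% of all probe sets, between 0.09 and 0.65 (fitted 0.53, SE 0.18, adjusted p = 0.489 in limma). On 1373661_a_at and 1370097_a_at, the other Cxcr4 probe sets, the fitted differences were -0.60 (SE 0.22) and -0.39 (SE 0.20) with blebbistatin against pulsed. For pulsed minus nonpulsed they were 0.46 (SE 0.22) and 0.34 (SE 0.20). Ackr3, the scavenging receptor of CXCL12, read 7.16, 6.45 and 7.34 with blebbistatin against 8.07, 7.39, 7.34 and 8.20 in pulsed cultures, a fitted difference of -0.74 (SE 0.21, adjusted p = 0.316 in limma). In neither receptor did a difference pass the threshold.

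Cx3cl1, the membrane-bound chemokine known as fractalkine, varied least in the nonpulsed cultures. Its level was 7.67, 8.03 and 7.79 in the pulsed + blebbistatin cultures, 8.42, 7.43, 7.34 and 8.34 in the pulsed cultures, and 7.79, 7.74 and 7.77 in the nonpulsed cultures. The 3 nonpulsed values lay within 0.06 of each other, inside the range of the pulsed group. Pulsed minus nonpulsed was 0.63, -0.31 and -0.43 in series 1, 2 and 3 (fitted 0.06, SE 0.25, adjusted p = 0.957 in limma, and -0.01 after median centring). Against pulsed cultures, the difference with blebbistatin was 0.24, 0.69 and -0.55 in series 2, 3 and 4 (fitted 0.03, SE 0.25, adjusted p = 0.971 in limma), and -0.00358 after quantile normalization.

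The classical cytokines were dim. Il6 read 4.21, 3.82 and 3.45 in the pulsed + blebbistatin cultures, 3.57, 3.87, 3.32 and 3.96 in the pulsed cultures, and 4.14, 3.42 and 3.32 in the nonpulsed cultures. It lay at the lowest level of the array on 3 of the 10, one in each group, so these values order the cultures poorly. Il1b read 4.28, 5.09 and 4.93 in the pulsed + blebbistatin cultures, 5.06, 5.01, 4.44 and 5.05 in the pulsed cultures, and 5.24, 5.15 and 4.63 in the nonpulsed cultures. Pulsed minus nonpulsed was negative for Il1b in 3 of 3 series, as in 10% of all probe sets above the filter. It was small, with a fitted difference of -0.16 (SE 0.26, adjusted p = 0.904 in limma without the filter). None of the Il6 and Il1b differences passed in the fit without the filter, with adjusted p from 0.620 to 0.974.

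Il1rl1, the receptor chain for IL-33, was the gene whose pulsed and nonpulsed cultures did not overlap. On its leading probe set the level was 11.41, 10.53 and 6.82 in the pulsed + blebbistatin cultures of series 2, 3 and 4. It was 10.01, 10.41, 10.63 and 11.10 in the pulsed cultures of series 1 to 4, and 11.32, 11.11 and 11.39 in the nonpulsed cultures of series 1 to 3. The second probe set, 1370692_at, read 6.11, 5.47 and 4.45 with blebbistatin, 5.31, 5.66, 5.86 and 5.98 in pulsed cultures, and 6.43, 6.26 and 6.19 in nonpulsed cultures. All 4 pulsed values were below all 3 nonpulsed values on both probe sets, by as little as 0.01 on the leading one. No overlap in this direction occurred in 2 of 10 probe sets described here, both of Il1rl1, beside 1.16% of all probe sets.

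Within series, pulsed minus nonpulsed was -1.31, -0.70 and -0.76 on the leading Il1rl1 probe set and -1.13, -0.60 and -0.32 on the other. Lower values in 3 of 3 series were found in 10% of all probe sets. The fitted difference over all 10 arrays was -0.37 (SE 0.85, adjusted p = 0.916 in limma). With the pulsed and nonpulsed arrays fitted alone it was -0.92 (SE 0.15, adjusted p = 0.548 in limma), and without the pulsed + blebbistatin culture of series 4 it was -0.92 as well (SE 0.25, adjusted p = 0.474). The second probe set gave -0.49 (SE 0.34) and -0.68 (SE 0.17) in the first 2 of these fits. None of these differences passed the threshold.

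With blebbistatin, the Il1rl1 series split. Pulsed + blebbistatin minus pulsed was 1.01, -0.09 and -4.28 in series 2, 3 and 4 on the leading probe set, the last of these a 19.5-fold lower level. It was 0.45, -0.39 and -1.54 on the second. The fitted difference was -0.97 (SE 0.85, adjusted p = 0.699 in limma) with series 4 and 0.55 (SE 0.29, adjusted p = 0.656) without its pulsed + blebbistatin culture, so that 1 array set the sign. In that same pair of cultures, all 10 macrophage markers above the filter were lower with blebbistatin (median -0.71, against 0.05 over all probe sets). So were 8 of 9 smooth muscle (-0.93), 7 of 8 endothelial (-0.32) and 9 of 11 fibroblast markers (-0.16), while 7 of 10 cardiomyocyte markers were higher (0.17). In series 2, where Il1rl1 was higher with blebbistatin, 9 of 10 macrophage markers were lower as well (median -0.36). The macrophage median of series 3 was 0.005. Smooth muscle, fibroblast and endothelial markers also had negative medians in series 2 (-0.56, -0.34 and -0.06) and in series 3 (-0.74, -0.25 and -0.28). Against nonpulsed cultures, the second Il1rl1 probe set was below all nonpulsed values in the 3 pulsed + blebbistatin cultures, as in 6.9% of all probe sets. Its fitted difference was -0.88 (SE 0.38, adjusted p = 0.229 in limma). The part of other cells in the Il1rl1 value of series 4 was not tested.

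Il1rap encodes the accessory chain that pairs with both IL1RL1 and the IL-1 receptor, and it was the single receptor gene to pass the threshold. Of 17 listed receptor genes, 7 were above the filter, and 1 passed, in pulsed + blebbistatin minus nonpulsed, as did 0.472% of all probe sets. Il1rap (1393563_at) read 5.63, 5.10 and 5.16 in the pulsed + blebbistatin cultures of series 2, 3 and 4. It read 6.32, 6.72, 6.46 and 6.44 in the pulsed cultures of series 1 to 4 and 6.91, 6.98 and 6.24 in the nonpulsed cultures of series 1 to 3. Each pulsed + blebbistatin value was below every value of the other groups. Of all probe sets, 3.67% lay below all pulsed values in this way and 6.9% below all nonpulsed values.

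Il1rap fell by 1.37 on the log2 scale (2.59-fold, SE 0.17, adjusted p = 0.0311 in limma) in pulsed + blebbistatin against nonpulsed cultures. Against pulsed cultures the difference was -1.18 (SE 0.15, adjusted p = 0.0734), with -1.08, -1.36 and -1.28 in series 2, 3 and 4, and it passed without series 1 (-1.24, adjusted p = 0.0279 in limma) and with series as a random block (adjusted p = 0.0356). The size was steady, between -1.57 and -1.26 against nonpulsed cultures over the fits without 1 array or 1 series, but the adjusted p ran from 0.0104 to 0.324 over the alternatives, and the call held without series 1 and was lost without series 2, 3 or 4, without the filter and with only the groups compared. The second probe set, 1387507_at, read 5.92, 5.80 and 5.90 with blebbistatin, 6.09, 6.28, 6.19 and 6.04 in pulsed cultures, and 6.33, 6.11 and 6.03 in nonpulsed cultures. Its difference from nonpulsed cultures was -0.25 (SE 0.12, adjusted p = 0.279 in limma), so the probe sets shared the sign and not the size.

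**Figure D3:**
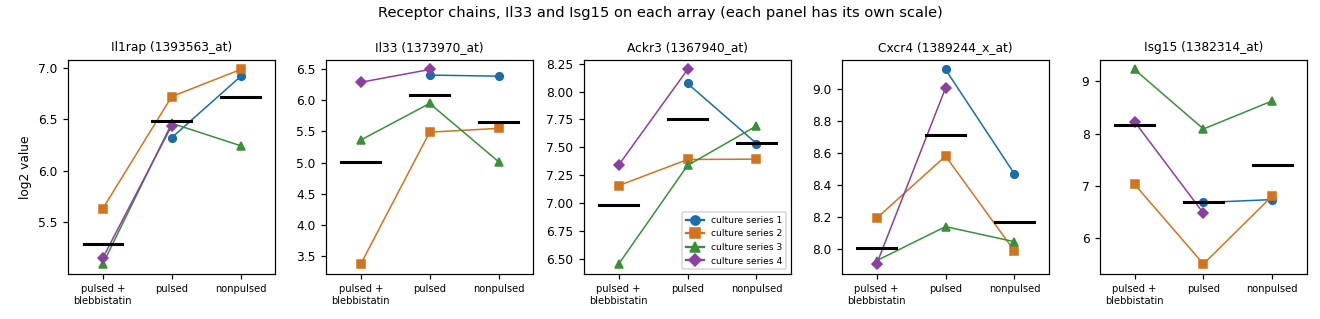
Deposited log2 value (vertical axis, a separate scale in each panel) of the leading probe sets of Il1rap, Il33, Ackr3, Cxcr4 and Isg15 on each array by group. Colours and markers are culture series, joined by lines, and black bars are group means. The 3 pulsed + blebbistatin values of Il1rap, from 5.10 to 5.63, lie below all 7 others.

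Among the other receptors, Il6st encodes gp130, the signal-transducing chain of the IL-6 receptor. Its leading probe set was higher with blebbistatin than in nonpulsed cultures by 0.43 (SE 0.10, adjusted p = 0.0854 in limma). Within series 2 and 3 it gave 0.41 and 0.43. The other Il6st probe sets gave 0.25 and 0.25 (1370957_at), -0.07 and 0.23 (1373140_at) and 0.07 and 0.18 (1383489_at). Il6r, the chain that binds IL-6, was higher by 0.52 (SE 0.13, adjusted p = 0.0993 in limma). Neither the 0.43 nor the 0.52 was past the threshold. Il1r1, the signalling receptor of IL-1, differed by -0.27 on its leading probe set (SE 0.15, adjusted p = 0.328 in limma). Within series 2 and 3 its other probe sets gave -0.16 and -0.44 (1370750_a_at) and 0.07 and -0.48 (1369255_at). Il33, the ligand of IL1RL1, read 3.38, 5.36 and 6.29 in pulsed + blebbistatin cultures on its leading probe set. It read 6.40, 5.49, 5.95 and 6.49 in pulsed cultures and 6.38, 5.55 and 5.02 in nonpulsed cultures. The 3.38 of series 2 was the lowest level of its array. Pulsed + blebbistatin minus pulsed was -2.11, -0.59 and -0.20 in series 2, 3 and 4 (fitted -0.94, SE 0.43, adjusted p = 0.450 in limma). A second Il33 probe set gave -0.13 (SE 0.15), with 0.10 in series 2.

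No other chemokine or cytokine passed either. Of 42 listed, 24 were above the filter and 0 passed in any comparison. Between pulsed + blebbistatin and pulsed cultures, 9 differences were positive and 15 negative, where 55.5% of all probe sets were positive. Their median was -0.14 against 0.02 over all probe sets. Of those above the filter, the largest after Il33 were Il15, a growth factor of lymphocytes, at -0.67 (SE 0.20, adjusted p = 0.316 in limma) and Cxcl13, an attractant of B cells, at 0.66 (SE 0.21, adjusted p = 0.321), with 0.71, 0.80 and 0.83 in its 3 series. For pulsed minus nonpulsed, 13 were positive and 11 negative, where 61.1% of all probe sets were positive. The largest were Il11 at 0.60 (SE 0.32), Spp1 (osteopontin) at -0.53 (SE 0.29) and Cxcl11, which shares its receptor with CXCL10, at 0.46 (SE 0.18).

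Genes of NF-kB feedback and its targets gave 20 of 24 above the filter and 0 past the threshold in the 3 comparisons. Their median difference was -0.06 for pulsed + blebbistatin minus pulsed and 0.06 for pulsed minus nonpulsed. The inducible cyclooxygenase gene Ptgs2 had the largest differences of that list above the filter, -1.28 (SE 0.91, adjusted p = 0.627 in limma) with blebbistatin against pulsed and -0.997 (SE 0.91, adjusted p = 0.752) in pulsed against nonpulsed cultures. It differed most in the same pairs as Ccl2 and Il1rl1, by -4.14 in series 4 with blebbistatin and by -3.65 in series 1 with pacing. For pulsed + blebbistatin minus nonpulsed, its fitted difference was -2.28, the lowest of that list. Within series 2 and 3 it was -0.72 and -1.08. Genes of IL-6 family signalling gave 14 of 16 above the filter and 0 past the threshold, with medians of -0.02 and 0.05 in the same order. Junb, an AP-1 subunit, was the largest of these 14 with blebbistatin, at -0.79 (SE 0.34, adjusted p = 0.440 in limma).

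**Figure D4:**
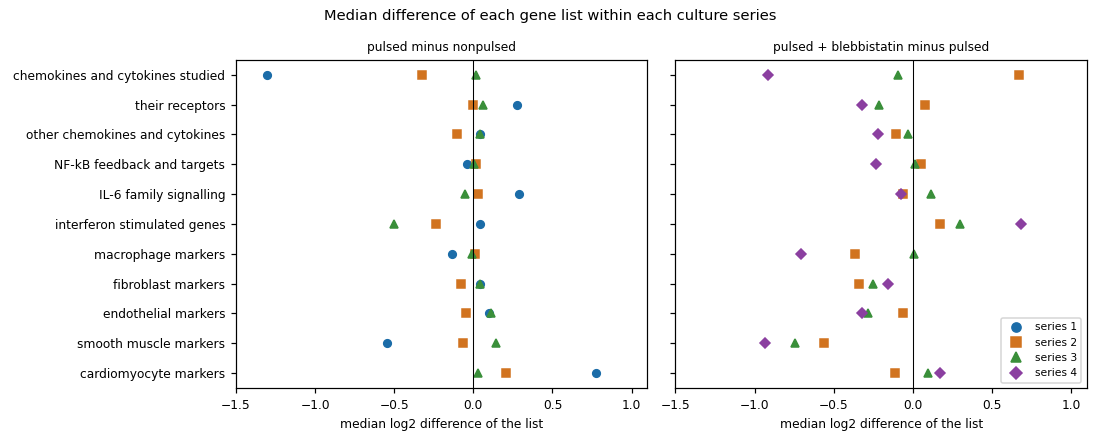
Median log2 difference (horizontal axis) of each gene list within each culture series, with one marker per series, for pulsed minus nonpulsed (left) and pulsed + blebbistatin minus pulsed cultures (right). The list of chemokines and cytokines runs from -1.31 in series 1 to 0.02 in series 3 on the left and from 0.67 in series 2 to -0.91 in series 4 on the right.

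Markers of the cells that could make these proteins differed as well. In pulsed + blebbistatin against pulsed cultures, 9 of 9 smooth muscle markers were negative (median -0.66), as were 9 of 11 fibroblast markers (median -0.28), 6 of 8 endothelial markers (median -0.16) and 9 of 10 macrophage markers (median -0.26), with none past the threshold. Over all probe sets, 55.5% of the differences were positive. The median of the cardiomyocyte markers was -0.02. The summed level of the 15 macrophage markers was 10.71 to 11.70 in pulsed + blebbistatin cultures, 10.81 to 12.45 in pulsed cultures and 10.95 to 12.70 in nonpulsed cultures, on the log2 scale of the sum. For pulsed minus nonpulsed, cardiomyocyte markers had a median of 0.31, with 0.77 in series 1, the series in which Ccl2, Ccl7 and Cxcl1 differed most. Whether these shifts have a part in the chemokine values was not tested.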

How the data were processed

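Total RNA isolated with Trizol was turned into biotinylated cRNA and measured on Affymetrix rat arrays, per the labels' protocols. The submitters' processing notes name PLIER and Affymetrix Expression Console 1.1 for the deposited log2 values. Their log base and the PLIER settings are not stated there, and base 2 was inferred from the values. No scaling was added. Dim probe sets share a lowest level, so their differences can be understated, and precision is limited by how many arrays there are.

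Of 31099 probe sets, 57 controls were left out. Symbols came from the platform annotation, which gives 1 symbol to 20826 probe sets, several to 436 and none to 9831. For a gene with several probe sets, the brightest on average leads, and the others stand beside it.

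Groups came from the treatment labels and series from the titles. The design text speaks of 3 arrays per treatment, but the labels give 4 pulsed ones, and all were used. One two-sided limma fit (version 3.58.1, R 4.3.3, moderated by eBayes) covered all 10 arrays with series as a fixed block, which leaves 4 residual degrees of freedom. A comparison then also draws on the third group's arrays. The code was tested on simulated data. Deviations from group means of same-series arrays correlated at 0.353 to 0.633 in 8 pairs. The 25 pairs of other series and groups ran from -0.578 to 0.498, with a median of -0.256. These ranges overlap, and the series were taken to pair the arrays. The genes and lists were chosen with earlier results of these data known. Genes named from the context lists were mostly among the 3 with the largest difference in a comparison, and not all of those are named. Receptors of the genes described were named as well. Alternatives changed the block, the scaling, the filter, the prior, the probe set rule and the arrays fitted.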

Additional observations from a re-analysis of the deposited data

Results flagged for a closer look

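Il1b in the pulsed culture of series 3 read 4.44 on the log2 scale, apart from the other pulsed cultures at 5.01 to 5.06. Its gap to the nearest of them was 0.925 of the group's range, past Dixon's critical value for 4 samples. Groups of 4 existed only among the pulsed arrays, where chance flags about 1 group in 20, and 14 probe sets were examined, the 13 described and Il1rap. The nonpulsed culture of the same series, at 4.63, was likewise the lowest of its group. Il1b was below the filter on low values.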

How the results depend on the processing

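The count of chemokine and cytokine probe sets past the threshold was 0 in the 3 comparisons under every alternative that was run. Values that changed sign were small in most cases, and the cause was not tested. Without the series block, Cxcl1 was 0.29 for pulsed minus nonpulsed and Cx3cl1 -0.0532 for pulsed + blebbistatin minus pulsed, and the series as a random block gave -0.0037 for Cx3cl1 in the second of these. After quantile normalization, Cxcl10 and Cxcl12 (1369633_at) were -0.0305 and -0.0477 for pulsed minus nonpulsed, and Cx3cl1 was -0.00358 for pulsed + blebbistatin minus pulsed. After median centring, Cxcl10, Cxcl12 (1369633_at) and Cx3cl1 were -0.0417, -0.0665 and -0.0115 for pulsed minus nonpulsed. With only the groups compared, or only the series holding both, Cxcl10 and Cx3cl1 were -0.0474 and -0.037 for pulsed minus nonpulsed, and Ccl7 was -0.13 for pulsed + blebbistatin minus pulsed and 0.11 for pulsed + blebbistatin minus nonpulsed. Leaving out 1 array or 1 series turned further signs, in fits that assume a lone array varies like the other groups. Pulsed minus nonpulsed then gave Ccl2 between -1.09 and 0.0635, Ccl7 between -0.80 and 0.0421, Cx3cl1 between -0.20 and 0.29, Cxcl1 between -1.22 and 0.79 and Cxcl10 between -0.0848 and 0.24, with Cxcl12 (1369633_at) between -0.12 and 0.15, Cxcl12 (1387655_at) between -0.0378 and 0.23, Cxcl12 (1388583_at) between -0.0616 and 0.35 and Il1rl1 (1387273_at) between -0.92 and 0.0908. Pulsed + blebbistatin minus pulsed gave Ccl2 between -0.67 and 0.42, Ccl7 between -0.30 and 0.53, Cx3cl1 between -0.25 and 0.30, Cxcl1 between -0.15 and 1.63, Cxcl12 (1388583_at) between -0.75 and 0.16, Il1rl1 (1370692_at) between -0.82 and 0.14 and Il1rl1 (1387273_at) between -1.98 and 0.55. Pulsed + blebbistatin minus nonpulsed gave Cx3cl1 between -0.17 and 0.26, Cxcl1 between -0.69 and 0.95 and Cxcl12 (1388583_at) between -0.49 and 0.41. The number of probe sets whose series term passed was 4, and 2 with 1 probe set per gene, and it ran between 0 and 5 when 1 array or 1 series was left out. The Il1rap alternatives, the series term and the list medians under the alternatives were added after seeing the data.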

Other observations

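Among 11845 other genes above the filter, those whose log2 values followed the chemokines and cytokines most closely over the 10 arrays differed from member to member. They were picked as the closest of so many genes on arrays that share culture series, so the Pearson correlations are a description only. Closest to Ccl2 was Gpr176, an orphan G protein-coupled receptor gene, at 0.94, which also correlated with Ccl7 at 0.91. Rab31, a small GTPase gene, was closest to Ccl7 at 0.94, and Lgals3, which encodes the macrophage-rich lectin galectin-3, reached 0.91. Cxcl1 was closest to Itgax, the CD11c integrin chain of dendritic cells and some macrophages, at 0.94, and to Fabp4, a fatty acid carrier, at 0.93. Cxcl10 was closest to Rmdn3, a mitochondrial membrane protein gene, at 0.95, and Cx3cl1 to Map4k1, a kinase gene of blood cells, at 0.89. Cxcl12 was closest to Fuca1, a lysosomal fucosidase gene, and Mecom, a transcription factor gene, both at 0.98. Il1rl1 was closest to Emp1, an epithelial membrane protein gene, and Axl, a receptor tyrosine kinase gene, both at 0.94. Cxcl2, Il6 and Il1b, below the filter, are not described in this way.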
